A study of Mus musculus with 16 samples.

Results

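Prolactin, growth hormone, oestrogen, glucocorticoid and thyroid hormone reach kidney cells through receptors encoded by Prlr, Ghr, Esr1, Nr3c1 and Thrb, and Cish and Socs2 encode feedback inhibitors that are induced downstream of Prlr and Ghr. These 7 genes were taken by symbol from the 31053 genes of the deposited feature table and followed in every cell class of single-cell RNA-seq data from mouse kidney. The series held 16 libraries, each from 1 mouse. Control mice were wild-type BTBR and DN (diabetic nephropathy) mice were leptin-deficient BTBR ob/ob, and each genotype was sampled in both sexes at 6 and at 12 weeks of age with 2 mice per group, so there were 8 groups. All mice, controls included, also carried a membrane Tomato/membrane GFP reporter and a Cre transgene driven by a podocyte promoter. The study took 6 weeks as the onset and 12 weeks as the early stage of the disease. Proximal tubule was partly removed on a density gradient before dissociation, so class sizes do not stand for their shares of the kidney.

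Prlr and Ghr belong to the class I cytokine receptors, which have no kinase of their own and signal through JAK2 and STAT5. STAT5 induces Cish and Socs2, whose products in turn dampen the receptors. Esr1 (oestrogen receptor alpha), Nr3c1 (glucocorticoid receptor) and Thrb (thyroid hormone receptor beta) are nuclear receptors, which bind DNA themselves and whose activity depends on hormone. In rodents, secretion of growth hormone and levels of sex steroids differ between the sexes, and the proximal tubule (PT) is the nephron segment best known for sex-dependent expression.

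The files held 116439 barcodes and 1267078476 UMIs (unique molecular identifiers, 1 for each captured RNA molecule). The filters left 86216 cells. Marker genes gave a name to the clusters of 69868 cells, in 17 classes, each to be read as "like" the cell type named. The other 16348 cells lay in 13 clusters without a name and held 8.97% (Ghr) to 13.2% (Socs2) of the UMIs of each member. UMIs were summed per library and class, and levels are given as CPM, the UMIs of a gene per 1000000 UMIs of that sum. The 4 replicate 1 female libraries, 1 of each female group, shared 23 to 55 cell barcodes with one another and at most 3 with the other 12, which shared 7 to 32 per pair. The study used 2 versions of the 10x 3′ kit but the labels name none for any library, so that the barcode sets stand for kit versions is inferred from the shared barcodes alone. The 4 libraries were also shallower, at 10510855 to 21728793 UMIs against 83410397 to 125551519. Differences between the sexes were therefore fitted with a term for the barcode set. The sex difference of the DN effect was fitted without this term, and both kinds of comparison were repeated in the 12 libraries alone.

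**Figure D1:**
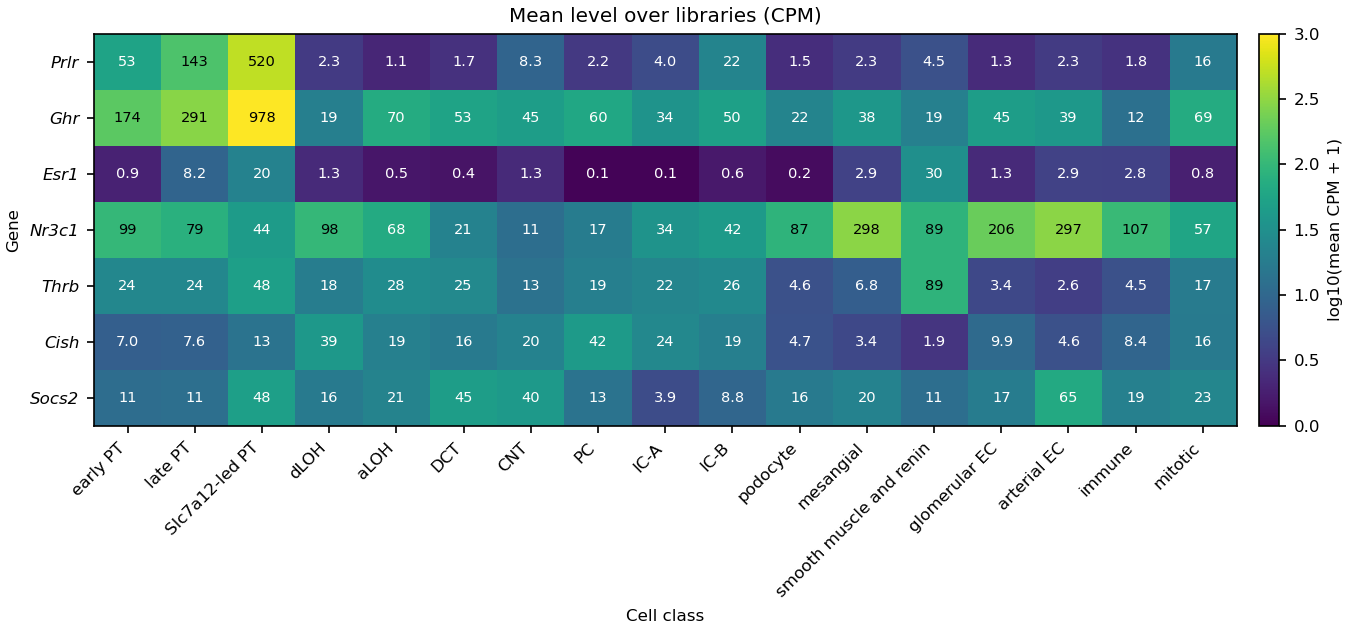
Mean level of each gene (rows) in each of the 17 cell classes (columns), printed in CPM and coloured by log10(mean CPM + 1), over 15 or 16 libraries per class. Over all libraries Prlr and Ghr stood highest in the 3 PT classes, Nr3c1 in mesangial, arterial and glomerular endothelial cells, and Esr1 and Thrb in smooth muscle and renin cells. PC are principal cells, IC-A and IC-B type A and type B intercalated cells, EC endothelial cells, CNT the connecting tubule, DCT the distal convolution, and dLOH and aLOH the descending and ascending limbs of Henle's loop.

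Prlr (ENSMUSG00000005268, GRCm38 chromosome 15, 10177238 to 10349180, plus strand) had its highest means over all libraries in the 3 PT classes. Its mean was 519.5 ± 359.8 CPM (SD, n = 15) in a PT class led by the amino acid transporter gene Slc7a12, 143.1 ± 163.1 (n = 16) in late PT and 53.5 ± 54.6 (n = 16) in early PT. The Slc7a12-led class lay above late PT in 14 of 15 libraries, with a mean difference of 382 CPM that exceeded the SD of the paired differences, 339 CPM. None of the next 3 steps in the order did so. Outside PT the highest class was IC-B, at 21.8 ± 5.34 CPM (n = 16), where females had 22.6 ± 6.78 and males 21.0 ± 3.70 (n = 8 each). Early PT lay above IC-B in 10 of 16 libraries. Control males had another order, with 21.6 ± 3.66 CPM in IC-B against 6.46 ± 2.30 in early PT and 1.35 ± 0.448 in late PT (n = 4 each). Their lowest IC-B library (18.0 CPM) lay above their highest early PT library (8.75 CPM). In glomerular EC, taken here as the background that free RNA can give, Prlr had 1.66 ± 1.74 CPM in females and 1.02 ± 1.18 in males (n = 8 each). Prlr overlaps Gm21973 on the same strand, and reads in the shared part cannot be given to either gene with certainty.

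RefSeq lists 3 start sites for Prlr on GRCm38.p6. The 250 bases before the second are shown because they hold 1 match to TTCNNNGAA, the letters of a STAT5 element, at 110 bases before the start. The match is in capitals, the stretch is chr15:10223656-10223905 on the plus strand, and the motif reads alike on both strands.

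Prlr: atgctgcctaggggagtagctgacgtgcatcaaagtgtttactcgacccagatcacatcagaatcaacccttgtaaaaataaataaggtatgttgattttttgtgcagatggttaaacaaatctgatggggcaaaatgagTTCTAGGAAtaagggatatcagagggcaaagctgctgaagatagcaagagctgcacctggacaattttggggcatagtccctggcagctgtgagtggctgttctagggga

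Such a match was present in 7.02% of the 32851 promoters of the table at this length. Among the 10 listed promoters of 5 members (Prlr, Ghr, Esr1, Thrb and Cish), 1 further promoter, of Esr1, held it. None held GGTCANNNTGACC (oestrogen response element) or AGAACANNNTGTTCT (glucocorticoid response element), which were present in 0.0639% and 0.00913% of all promoters.

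The sexes and genotypes differed most for Prlr in late PT. Control females had 232 and 595 CPM at 6 weeks and 204 and 369 at 12 weeks. Control males had 0.825 and 1.23 CPM at 6 weeks and 1.901 and 1.435 at 12 weeks, which is within the range of glomerular EC. DN males had 120.5 and 50.3 CPM at 6 weeks and 18.7 and 21.3 at 12 weeks, so every DN male lay above every control male. DN females, at 141 and 220 CPM (6 weeks) and 99.7 and 213 (12 weeks), overlapped with control females as groups, while each lay below the control female of the same age and replicate number. The control males were thus the lowest group and the control females the highest, and the DN groups lay between them.

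**Figure D2:**
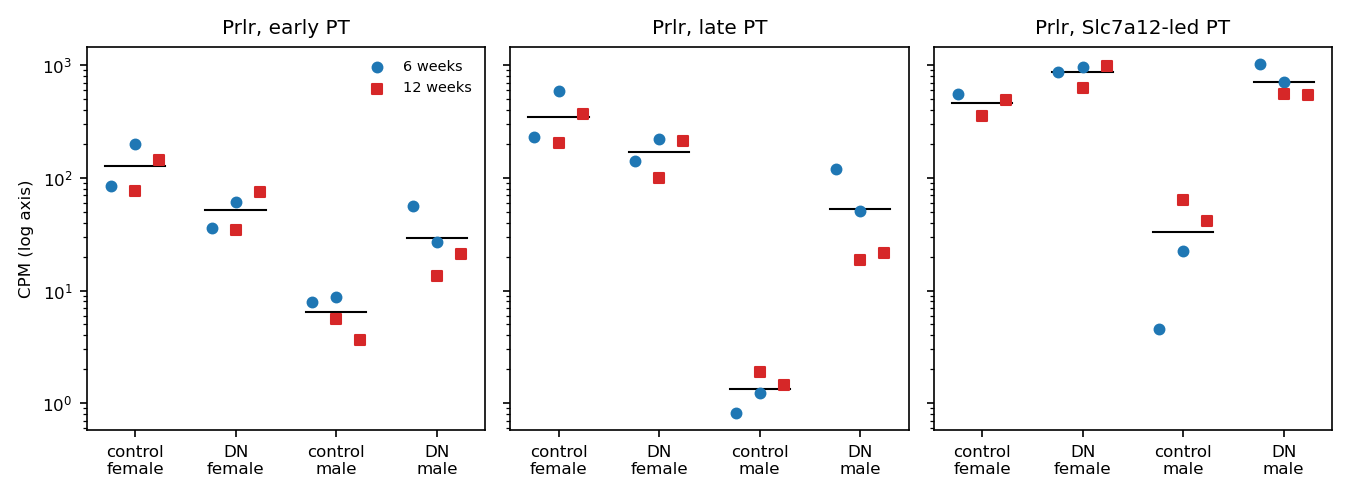
Prlr in each library (CPM, log axis) for early PT, late PT and Slc7a12-led PT, by genotype and sex, with circles for 6 weeks, squares for 12 weeks and a bar at the mean of the libraries. Control males lay below all other libraries in each of the 3 classes, and DN males lay close to DN females in Slc7a12-led PT.

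Whether the sexes differ in their response to DN was tested as the DN effect in females minus the DN effect in males, averaged over both ages. Of 87 gene-and-class pairs of members tested, 3 were called at an adjusted p under 0.05, all of them Prlr in PT, while 0.0246% of all gene-and-class pairs were called (0.253% in late PT, 0.0959% in Slc7a12-led PT and 0.0352% in early PT). In late PT the difference was -5.95 ± 0.55 on the log2 scale (SE; edgeR quasi-likelihood test, adjusted p = 0.000102). In Slc7a12-led PT it was -3.77 ± 0.51 (edgeR, adjusted p = 0.00212) and in early PT -3.30 ± 0.46 (edgeR, adjusted p = 0.0298). Within the 12 libraries of the larger barcode set the differences were -6.00, -3.73 and -3.37 in that order. Of each female group only replicate 2 is in that set, so the spread of this fit came from males alone. With a barcode-set term over all libraries they were -5.93, -3.75 and -3.31 (edgeR, adjusted p = 6.11e-07, 0.000303 and 0.00262). The early PT call was also lost without any 1 of 14 of the 16 libraries (adjusted p up to 0.217), and it was kept only without replicate 1 of the control females of 6 weeks or replicate 2 of the DN males of 6 weeks, whereas the late PT call held whichever library was left out. The call in Slc7a12-led PT held without each of 15 libraries and could not be fitted without replicate 2 of the control females of 6 weeks, whose fellow replicate had too few cells.

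The effects within each sex, a split added after the data were seen, ran in opposite directions in late and early PT. In late PT of males Prlr rose by 4.91 ± 0.43 on the log2 scale in DN (edgeR, adjusted p = 3.56e-05, with 2.38% of all genes called), and in females the value was -1.03 ± 0.35 (adjusted p = 0.585, with 0.228% called). Control males of late PT held 51 UMIs of Prlr in all, at a level not above that of glomerular EC. Differences against them in this class, 4.91 here and those between the sexes, are therefore relative to a level that cannot be told apart from background. In early PT the male value was 2.03 ± 0.33 (edgeR, adjusted p = 0.00944) and the female value -1.27 ± 0.31 (adjusted p = 0.427), where 0.696% and 0.044% of all genes were called. The early PT libraries held 7.83 and 8.75 CPM (6 weeks) and 5.63 and 3.61 (12 weeks) in control males, 56.4, 26.8, 13.5 and 21.3 in DN males in the same order, 84.0, 201, 77.2 and 143 in control females, and 35.9, 61.2, 34.2 and 74.8 in DN females. All 4 DN females thus lay below all 4 control females there. The female values depended on the fit. With the barcode-set term they were -1.02 in late PT (edgeR, adjusted p = 0.073) and -1.29 in early PT (adjusted p = 0.0868). With DN and control libraries of the same age and replicate number as a block, an alternative added after the data were seen, both were called, at -1.02 ± 0.14 (edgeR, adjusted p = 0.000984, with 3% of all genes called) and -1.31 ± 0.18 (adjusted p = 0.00136, with 1.04% called). The male values with the block were 4.87 and 2.00 (edgeR, adjusted p = 1.55e-09 and 2.15e-05).

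**Figure D3:**
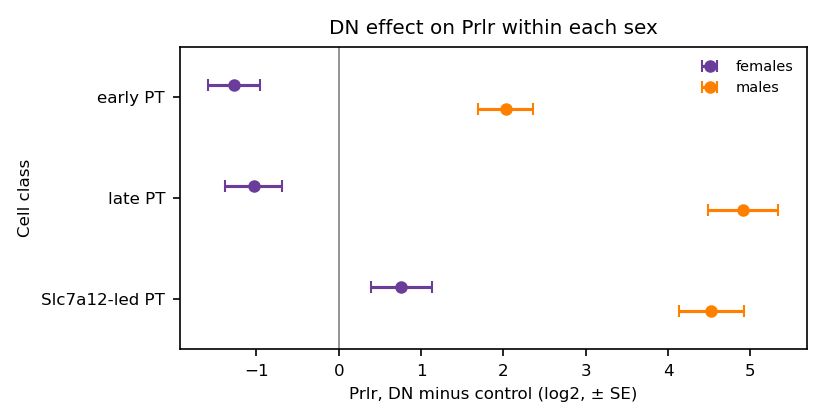
DN minus control for Prlr on the log2 scale (x axis), with bars of 1 SE, in each PT class (y axis), within females and within males. The male effects were 2.03, 4.91 and 4.53 in early, late and Slc7a12-led PT, and the female effects were -1.27, -1.03 and 0.76.

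In Slc7a12-led PT control males also lay below every other library. They had 4.54 and 22.6 CPM of Prlr at 6 weeks and 63.8 and 41.4 at 12 weeks, from 3, 9, 41 and 7 UMIs. DN males had 1016 and 705.5 CPM at 6 weeks and 552.9 and 544.3 at 12 weeks. DN females had 869 and 963 at 6 weeks and 629 and 989 at 12 weeks, while the 3 control females with enough cells had 553.4 (6 weeks, replicate 2), 352 and 487 (12 weeks). DN and control females did not overlap, as DN and control males did not, yet without the block only the male effect was called (4.53 ± 0.39 on the log2 scale, edgeR adjusted p = 5.17e-06, with 1.41% of all genes called; in females 0.76 ± 0.37, adjusted p = 0.637, with 0.803% called). With the block the female value was 0.73 ± 0.22 (edgeR, adjusted p = 0.0739, with 3.02% called). Over both sexes the DN effect was 3.16 ± 0.84 at 6 weeks (edgeR, adjusted p = 0.0945) and 1.895 ± 0.683 at 12 weeks (adjusted p = 0.359). The value at 6 weeks was called with the block (3.54, adjusted p = 0.0345), with the barcode-set term (3.29, adjusted p = 0.0356), in the larger barcode set (3.91, adjusted p = 0.0393) and by DESeq2 (3.39, adjusted p = 0.025). The class is small, with 19 to 211 cells per library, and Slc7a12 itself differed between its groups, at 7.35 ± 8.81 CPM in control males (n = 4), 391 ± 181 in DN males (n = 4), 1150 ± 376 in control females (n = 3) and 924 ± 96.8 in DN females (n = 4). Whether the class holds the same cells in each group was not tested.

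Averaged over genotype and age, Prlr was higher in females in all 3 PT classes. Of 86 pairs of members tested between the sexes, 6 were called, 4 of them higher in females, against 2.8% of all pairs (27.1% in late PT, 7.05% in early PT and 3.2% in Slc7a12-led PT). The difference in late PT was 4.67 ± 0.92 on the log2 scale (edgeR, adjusted p = 0.00185), at 259 ± 157 CPM in females and 27.0 ± 41.4 in males (n = 8 each). Early PT gave 2.69 ± 0.51 (edgeR, adjusted p = 0.00549) and Slc7a12-led PT 2.03 ± 0.55 (edgeR, adjusted p = 0.0467). In the 12 libraries of the larger barcode set the values were 5.62, 2.91 and 2.34 in late, early and Slc7a12-led PT (edgeR, adjusted p = 0.00345, 0.0226 and 0.0432). With the replicate block the calls in early PT (2.51, adjusted p = 0.0857) and Slc7a12-led PT (1.43, adjusted p = 0.311; limma) were lost, and the latter was also lost without the barcode-set term (1.81, adjusted p = 0.0669). The value in Slc7a12-led PT was 0.70 (adjusted p = 0.378) among sums of at least 30 cells, which leaves out whole libraries, and 0.86 (adjusted p = 0.36) without replicate 2 of the control females of 6 weeks. It was also lost without replicate 2 of the control females or replicate 1 of the DN females of 12 weeks or without any 1 of the 4 control males (1.54 to 2.09, adjusted p 0.06 to 0.224). The early PT call was lost without replicate 2 of the control females of 6 weeks (2.03, adjusted p = 0.0607). Split by genotype with the barcode-set term, the late PT difference was 8.17 ± 0.37 in controls (edgeR, adjusted p = 5.03e-10, with 21.4% of all genes called) and 2.25 ± 0.27 in DN (adjusted p = 0.000111, with 4.52% called). In Slc7a12-led PT it was 4.11 ± 0.37 in controls (edgeR, adjusted p = 7.4e-07, with 2.8% called) and 0.36 ± 0.31 in DN (adjusted p = 0.893, with 0.695% called). In CNT, Prlr had 7.47 ± 2.97 CPM in DN and 13.5 ± 5.37 in controls at 12 weeks (n = 4 each). The difference was -0.92 ± 0.28 on the log2 scale (edgeR, adjusted p = 0.182), and it was called with the replicate block (-0.93, adjusted p = 0.0139). The difference of 12 minus 6 weeks in CNT, 0.87 ± 0.23 (edgeR, adjusted p = 0.151), was called with the block (0.97, adjusted p = 0.00591) and with the barcode-set term (0.96, adjusted p = 0.0285).

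The levels of genes known to depend on sex in mouse PT are given for the same libraries, and their part in the Prlr result was not tested. Kap, an androgen-regulated PT gene, had 67800 ± 14800 CPM in late PT of control males and 22500 ± 11300 in DN males, against 903 ± 1470 in control females and 444 ± 400 in DN females (n = 4 each). The males did not overlap, at 48400 to 82800 CPM in controls and 8750 to 33800 in DN. Kap was called for DN in no class at either age, but those fits averaged over both sexes. Its fit within males is not given here. Slc7a13, an amino acid transporter gene of male PT, had 516 ± 52.5 CPM in late PT of control males and 143 ± 73.7 in DN males, with 1.63 ± 1.72 and 0.58 ± 0.562 in control and DN females (n = 4 each). It fell in DN at 6 weeks by 2.5 ± 0.48 on the log2 scale in late PT (edgeR, adjusted p = 0.0268). In Slc7a12-led PT it had 1190 ± 332 CPM in control males and 1290 ± 146 in DN males (n = 4 each). Of the 10 genes listed as sex-dependent, 102 gene-and-class pairs were tested for DN at each age, and 2 were lower and 0 higher at 6 weeks (1.96% against 0.128% of all pairs) and again 2 lower and 0 higher at 12 weeks (1.96% against 0.473%). The median over the pairs was -1.57 on the log2 scale at 6 weeks and -0.76 at 12 weeks, beside a median near 0.00 over all genes. At 12 weeks these were Slc7a13 in early PT (-3.01 ± 0.45, edgeR adjusted p = 0.00731) and Cyp4b1 among podocytes (-4.41 ± 0.93, adjusted p = 0.032). Cyp4b1 had 45.1 ± 27.0 CPM in podocytes of control males against 1520 ± 86.7 in their late PT (n = 4 each), and 4.77 ± 4.26 against 685 ± 228 in DN males (n = 4 each). Between the sexes 48 of 107 pairs were lower and 2 higher in females (46.7% against 2.8% of all pairs). In early, late and Slc7a12-led PT 75.0%, 75.0% and 70.0% were called, against 7.05%, 27.1% and 3.2% of all genes. The genes were listed because they depend on sex, with earlier results of these data known. These shares between the sexes follow from that choice and are no test. Slc7a13 in late PT had the lowest adjusted p (-8.77 ± 0.38, edgeR adjusted p = 2.19e-10). Of the lower pairs, 6 lay in early PT, 6 in late PT and 5 in Slc7a12-led PT. The others lay outside PT, as for Kap in smooth muscle and renin cells (1560 ± 566 CPM in control males, n = 4). The part of RNA from PT cells in the values of these genes outside PT was not tested. In the sex difference of the DN effect 1 pair of 111 was higher and 2 were lower (2.7% against 0.0246% of all pairs). All were in Slc7a12-led PT (30.0% against 0.0959% of all genes), namely Cyp4b1 (5.84 ± 0.96, edgeR adjusted p = 0.0125), Slc7a12 (-6.41 ± 0.82, adjusted p = 0.00212) and Abcc3 (-6.75 ± 1.19, adjusted p = 0.0353). Abcc3 is a transporter gene with no UMI in the class in any control male.

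Ghr (ENSMUSG00000055737, chromosome 15, 3317760 to 3583492, minus strand) was also highest in the 3 PT classes, in the same order among them. It had 978 ± 195 CPM (n = 15) in Slc7a12-led PT, 291 ± 87.9 (n = 16) in late PT and 174 ± 37.0 (n = 16) in early PT, and each of these steps, and that from early PT to aLOH at 69.6 ± 16.9, exceeded the SD of the paired differences. Every named class held some Ghr, the lowest being immune cells. In late PT females had less than males. Control females had 260 and 240 CPM at 6 weeks and 314 and 255.5 at 12 weeks, DN females 181, 219, 154 and 185, control males 343, 368, 399 and 379, and DN males 211, 370, 340 and 433, in the same order of ages and replicates. The sexes did not overlap within controls, and 1 DN male of 6 weeks lay among the DN females. Female minus male was -0.85 ± 0.15 on the log2 scale (edgeR, adjusted p = 0.000958), opposite in sign to Prlr in the same cells. It was -0.82 (adjusted p = 0.00198) in the 12 libraries of the larger barcode set. In Slc7a12-led PT, where Ghr was highest, the sex difference was 0.27 ± 0.18 (adjusted p = 0.468). There the libraries held 1112 CPM in the control female of 6 weeks, 1257 and 1316 in those of 12 weeks, 940, 1090, 934 and 1070 in DN females, 597.5, 1027, 711.5 and 858 in control males and 832, 1148, 896.5 and 880 in DN males, so the control females lay above both the DN females and the control males, and the other ranges overlapped. In mesangial cells Ghr had 43.9 ± 3.67 CPM in DN and 26.8 ± 6.59 in controls at 12 weeks (n = 4 each, with no overlap). The difference was 0.72 ± 0.22 on the log2 scale (edgeR, adjusted p = 0.0945), and it was called with the replicate block (0.72, adjusted p = 0.00263) and with the barcode-set term (0.71, adjusted p = 0.0386).

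**Figure D4:**
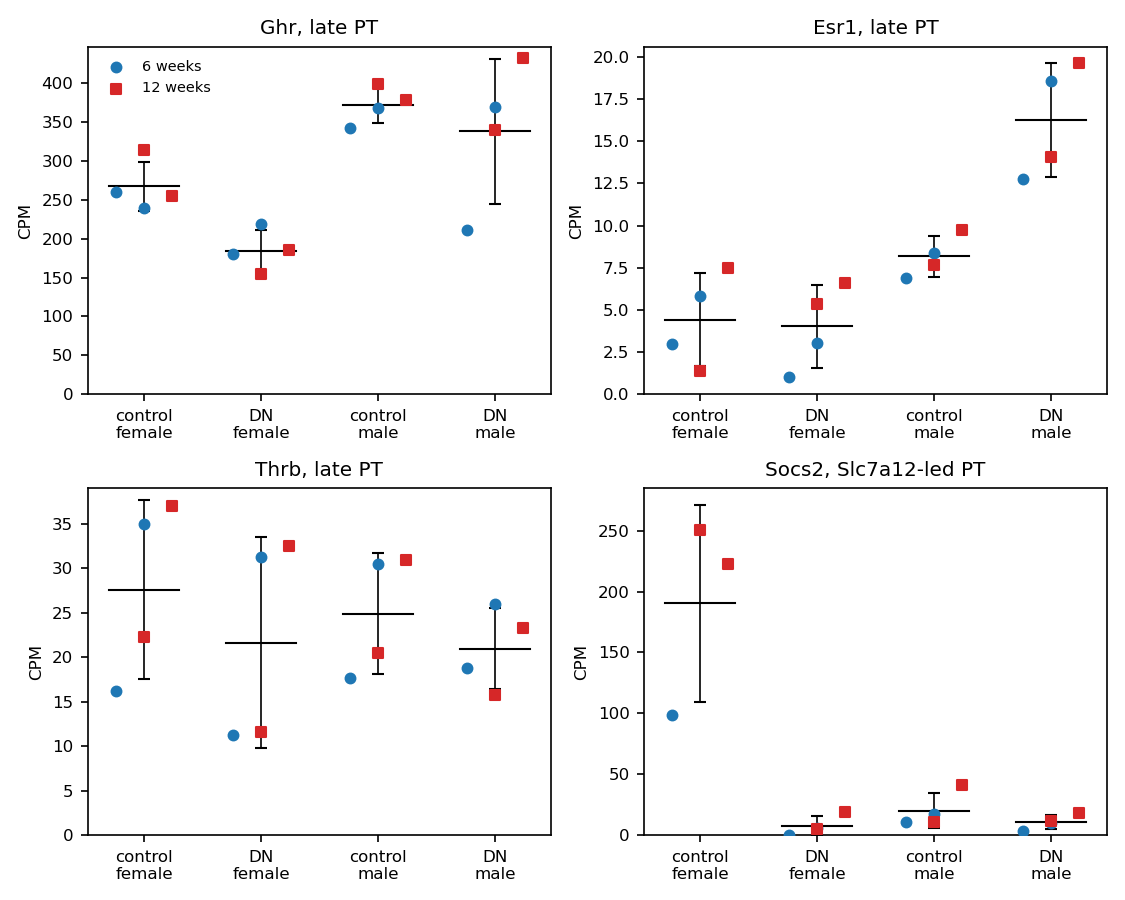
CPM in each library for Ghr, Esr1 and Thrb in late PT and for Socs2 in Slc7a12-led PT, by genotype and sex, with circles for 6 weeks, squares for 12 weeks, a bar at the mean and whiskers of 1 SD. Ghr and Esr1 lay lower in females, and Socs2 lay highest in the 3 control females.

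Esr1 (ENSMUSG00000019768, chromosome 10, 4611593 to 5005614, plus strand) passed the count filter in 4 classes. It was highest in smooth muscle and renin cells, at 29.9 ± 13.0 CPM (n = 16), followed by Slc7a12-led PT at 20.43 ± 11.01 (n = 15) and late PT at 8.21 ± 5.59 (n = 16), and the first step did not exceed the spread of the paired differences. In smooth muscle and renin cells control females had 9.93 and 39.6 CPM at 6 weeks and 45.6 and 24.05 at 12 weeks, DN females 7.75, 51.4, 21.65 and 40.04, control males 11.4, 31.65, 24.01 and 29.8, and DN males 25.8, 40.6, 38.4 and 36.3. The control and DN libraries overlapped at both ages. In late PT males had more Esr1 than females, with 6.87, 8.36, 7.69 and 9.76 CPM in control males and 12.8, 18.6, 14.1 and 19.7 in DN males, against 2.94, 5.83, 1.35 and 7.48 in control females and 1.02, 3.05, 5.37 and 6.61 in DN females. All DN males thus lay above all control males. Female minus male was -1.28 ± 0.25 on the log2 scale (edgeR, adjusted p = 0.00167). It was -1.25 (adjusted p = 0.00568) in the 12 libraries of the larger barcode set. The sex difference in the DN effect was -1.27 ± 0.42 in late PT, which did not pass the test over all genes (edgeR, adjusted p = 0.533).

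Nr3c1 (ENSMUSG00000024431) was the only member that passed the count filter in all 17 classes. Mesangial cells had 297.6 ± 54.5 CPM and arterial EC 296.9 ± 66.2 (n = 16 each), a difference far within the spread. Glomerular EC followed at 205.5 ± 49.5, below arterial EC in 16 of 16 libraries, and immune cells at 107 ± 23.7. The lowest classes were CNT and PC. In mesangial cells the 4 female control libraries had 228 and 286 CPM (6 weeks) and 233 and 321 (12 weeks), DN females 229, 206, 238 and 339, control males 374, 332, 342 and 351.5, and DN males 306.5, 333, 292 and 352. Control and DN overlapped within each sex. Nr3c1 was called in none of the 6 comparisons in any class, by edgeR or by DESeq2. The replicate block called it for DN at 12 weeks in early PT (-0.41, adjusted p = 0.0488). At an unadjusted p under 0.05 it passed in 1 of 17 classes for DN at 6 weeks, in 1 at 12 weeks and in 2 between the sexes, where 3.98%, 6.11% and 14.4% of all pairs passed.

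Thrb (ENSMUSG00000021779, chromosome 14, 17660261 to 18038090, plus strand) was highest in smooth muscle and renin cells, at 89.0 ± 21.4 CPM (n = 16), above Slc7a12-led PT at 48.3 ± 20.9 (n = 15) in 14 of 15 libraries. Glomerular and arterial EC and podocytes held little. In smooth muscle and renin cells control females had 109 and 88.5 CPM (6 weeks) and 122 and 128 (12 weeks), control males 89.6, 119, 90.0 and 82.0, DN females 62.0, 101.5, 70.4 and 68.9, and DN males 69.5, 79.0, 60.7 and 83.7. The DN libraries of 12 weeks lay mostly below the controls, with 1 DN male above 1 control male, and no DN effect was called. In late PT female minus male was 0.40 ± 0.13 on the log2 scale (edgeR, adjusted p = 0.035). This call needed the barcode-set term, as the value was 0.12 (adjusted p = 0.76) without it, since females of the smaller set had 15.3 ± 5.16 CPM, females of the larger set 34.0 ± 2.57 (n = 4 each) and males 22.9 ± 5.78 (n = 8). In the 12 libraries of the larger set it was 0.42 (adjusted p = 0.0321), and leaving out 1 library gave adjusted p of 0.0241 to 0.15. The call was lost without replicate 1 of the control males of either age, replicate 2 of the control females of 6 weeks, replicate 2 of the DN females of either age or replicate 1 of the DN males of 12 weeks (0.34 to 0.38, adjusted p 0.0589 to 0.15). It was also lost with the replicate block (0.40, adjusted p = 0.0813; limma).

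Cish (ENSMUSG00000032578, chromosome 9, 107296026 to 107302784, plus strand), a STAT5-induced inhibitor of cytokine receptors, was highest in PC at 42.4 ± 10.7 CPM and in dLOH at 38.6 ± 10.1 (n = 16 each), 2 classes that did not differ beyond the spread. In PT it had 7.05 ± 7.21 CPM in early PT, 7.56 ± 7.57 in late PT (n = 16 each) and 12.7 ± 18.7 in Slc7a12-led PT (n = 15). Podocytes, mesangial cells, arterial EC and smooth muscle and renin cells had lower means. In PC the controls of 12 weeks had 56.0 and 48.1 CPM (females) and 55.8 and 53.9 (males), and the DN mice of 12 weeks 28.7, 38.3, 33.9 and 36.3, so the genotypes did not overlap at this age. At 6 weeks they did, with 30.3, 38.3, 49.4 and 45.8 in controls and 29.8, 41.8, 61.4 and 30.6 in DN. The DN difference in PC at 12 weeks was -0.56 ± 0.18 on the log2 scale and did not pass the test over all genes (edgeR, adjusted p = 0.315). With DN and control libraries of the same replicate number as a block it was called (-0.54, adjusted p = 0.0118). So was Cish in IC-A at 12 weeks (-0.49, adjusted p = 0.0103, against -0.49 and 0.381 without the block). In PT of females the block also raised the share of all genes called, as given above. That share is not given for PC and IC-A. The sign of the DN difference in Cish was negative in 12 of 12 classes tested at 12 weeks and in 11 of 12 at 6 weeks, with medians of -0.52 and -0.35, and none of these was called without the block and with the count filter. The classes came from the same mice, so these signs are not separate observations.

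Socs2 (ENSMUSG00000020027, chromosome 10, 95385362 to 95417180, minus strand), which restrains growth hormone signalling, had a pattern unlike that of the receptors. Its highest class was arterial EC, at 65.2 ± 14.6 CPM (n = 16), followed by Slc7a12-led PT at 48.3 ± 80.3 (n = 15), DCT at 45.2 ± 13.3 and CNT at 40.1 ± 11.6 (n = 16 each), and none of the first 3 steps exceeded the spread. In arterial EC control females had 54.6 and 62.1 CPM at 6 weeks and 100.9 and 50.4 at 12 weeks, DN females 44.7, 64.4, 68.1 and 62.6, control males 75.7, 58.1, 64.5 and 59.15, and DN males 56.4, 63.4, 63.6 and 94.6. The groups overlapped. In Slc7a12-led PT the 3 control females stood apart, with 98.6 CPM at 6 weeks and 251 and 222 at 12 weeks. DN females there had 0 and 5.99 CPM at 6 weeks and 4.85 and 19.0 at 12 weeks. Control males had 10.6, 17.6, 10.9 and 41.4 CPM and DN males 3.57, 9.87, 11.2 and 18.1, which overlapped.

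At 12 weeks Socs2 in Slc7a12-led PT was the only one of 86 member pairs called for DN, where 0.473% of all pairs and 0.928% of those in the class were called. The difference was -2.98 ± 0.66 on the log2 scale (edgeR, adjusted p = 0.034), at 13.3 ± 6.63 CPM in DN and 131 ± 123 in controls (n = 4 each), and the 2 groups overlapped through the males. The call was lost without any 1 of 6 of the 8 libraries of 12 weeks (adjusted p 0.0587 to 0.289) and in the larger barcode set (-2.15, adjusted p = 0.277), and it held without control male replicate 1 or DN male replicate 2 of that age. The sex difference in the DN effect was -3.32 ± 0.70 there (edgeR, adjusted p = 0.0771). It was called with the barcode-set term (-3.29, adjusted p = 0.0285), with the replicate block (-3.21, adjusted p = 0.00199) and by DESeq2 (-3.39, adjusted p = 0.0118). Over 16 classes the sign of the DN difference in Socs2 was negative in 13 at 6 weeks and in 13 at 12 weeks, with dLOH and CNT on the positive side at both ages. As for Cish, the classes share mice and the signs are not separate observations.

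**Figure D5:**
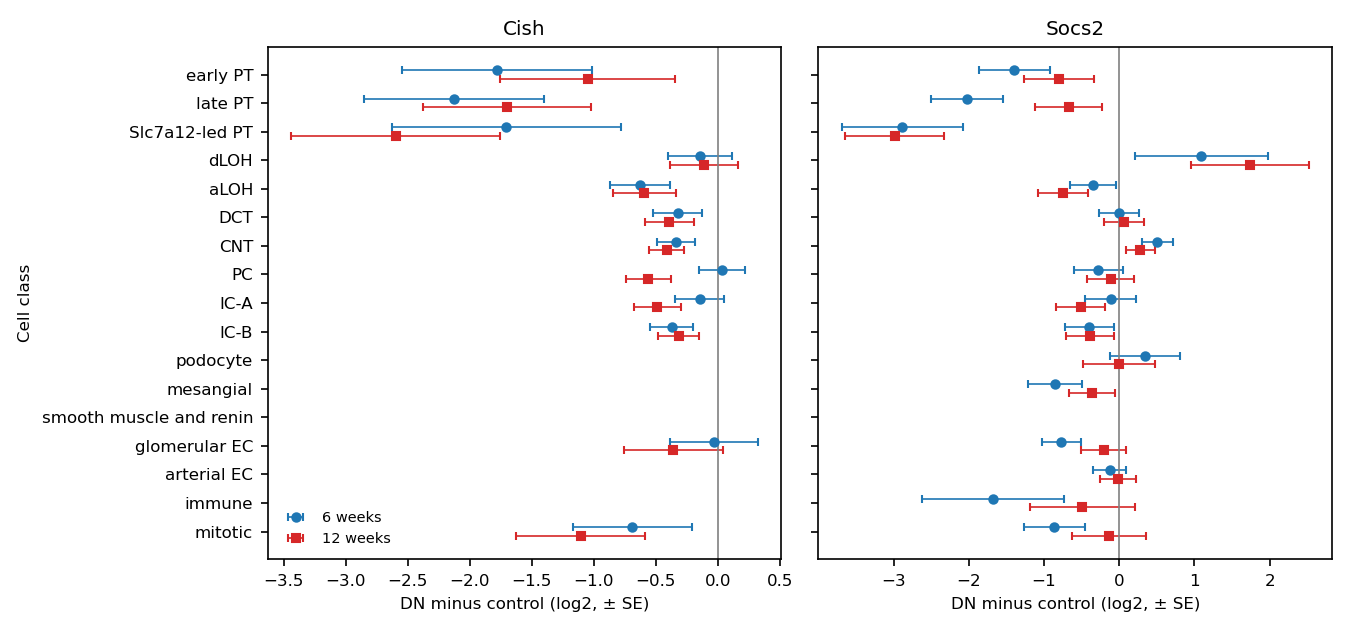
DN minus control on the log2 scale (x axis) with bars of 1 SE for Cish and Socs2 in each class tested (y axis), circles for 6 weeks and squares for 12 weeks. Cish lay below 0 in 12 of 12 classes at 12 weeks, and the most negative value of each gene at each age was in a PT class, where only Socs2 in Slc7a12-led PT at 12 weeks was called. The classes came from the same mice.

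In late PT, Cish and Socs2 were lower in DN at 6 weeks by values that did not pass the test over all genes. Cish had 2.42 CPM in DN and 13.7 in controls (-2.13 ± 0.72 on the log2 scale, edgeR adjusted p = 0.37) and Socs2 3.95 and 17.1 (-2.02 ± 0.48, adjusted p = 0.0858; -2.02, adjusted p = 0.0163 with the replicate block). At 6 weeks none of 86 member pairs was called by edgeR, where 0.128% of all pairs were called. At an unadjusted p under 0.05, 16 of the 86 passed, a larger share than the 3.98% of all pairs. At 12 weeks 16 of 86 passed as well, beside 6.11% of all pairs. The classes came from the same mice, so these pairs are not separate observations. DESeq2 called 3 at 6 weeks, namely Socs2 in late PT and in Slc7a12-led PT and Prlr in Slc7a12-led PT. The share of all pairs called by DESeq2 is not given here, so this count is not read as a result about the members. The DN effect at 12 weeks minus that at 6 weeks was called for 0 of 86 pairs by edgeR and by DESeq2, where 0% of all pairs were called by edgeR. At an unadjusted p under 0.05 it passed in 2 pairs, and in 1.38% of all pairs. For 12 against 6 weeks 0 of 86 were called by either tool, where 0.0141% of all pairs were called by edgeR. At an unadjusted p under 0.05, 4 of the 86 passed, beside 4.35% of all pairs.

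Of 240 gene-and-class pairs of 21 genes of growth hormone and prolactin signalling other than the members, 3 were higher and 0 lower in DN at 12 weeks (1.25% against 0.473% of all pairs, median 0.01 on the log2 scale against 0.00) and 0 were called at 6 weeks. All 3 were in mesangial cells, where 307 of the 9497 genes tested were called, more than in any other class at that age. There Ccnd1 (cyclin D1) rose by 1.03 ± 0.26 on the log2 scale (edgeR, adjusted p = 0.0311), Epor (erythropoietin receptor) by 0.87 ± 0.22 (adjusted p = 0.0383) and Igfbp3 (an IGF-binding protein) by 6.76 ± 1.51 from near 0 (adjusted p = 0.0221). Over both ages Igfbp3 had 6.73 ± 5.56 CPM in DN females and 8.0 ± 6.94 in DN males (n = 4 each). It is also a marker of peritubular and venous EC, which had no named class. The part of RNA from other cells in its values was not tested. Between the sexes 1 was higher and 3 were lower in females of 246 (1.63% against 2.8% of all pairs), the 3 being Ccnd1 in late PT (-0.91 ± 0.15), early PT (-0.81 ± 0.15) and smooth muscle and renin cells (-0.96 ± 0.18; edgeR, adjusted p 0.000514 to 0.00579).

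Among the other steroid and thyroid receptors and the enzymes that set their ligands, 14 genes gave 164 pairs, of which 3 were lower and 0 higher in DN at 12 weeks (1.83% against 0.473% of all pairs) and 0 were called at 6 weeks. In mesangial cells, the class with the most calls, Vdr (vitamin D receptor) fell by 2.15 ± 0.39 on the log2 scale (edgeR, adjusted p = 0.0039). Another of the 3 was Hsd11b2, a PC marker, in Slc7a12-led PT (-3.38 ± 0.53, adjusted p = 0.00225). Its mean there was 9.06 to 96.5 CPM by genotype and sex, and the part of RNA from other cells in this value was not tested. Hsd11b1, which regenerates active glucocorticoid, was lower in females in late PT by 2.06 ± 0.52 (edgeR, adjusted p = 0.00886) and had 31.0 ± 11.8 CPM in control males, 6.45 ± 2.56 in DN males, 5.09 ± 2.95 in control females and 4.26 ± 2.07 in DN females (n = 4 each). Of 167 pairs 2 were higher and 3 lower in females (2.99% against 2.8% of all pairs). Esrrg, an orphan nuclear receptor, was higher in late PT of females by 0.56 ± 0.14 (adjusted p = 0.00979), and Vdr in CNT was higher at 12 than at 6 weeks by 0.87 ± 0.15 (adjusted p = 0.0317). This was 1 of 164 pairs called for age (0.61% against 0.0141% of all pairs), and CNT held 20 of the 23 calls for age over all genes and classes.

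Of 251 pairs of 16 glucocorticoid-responsive genes, 2 were higher and 0 lower in DN at 12 weeks (0.797% against 0.473% of all pairs) and 0 were called at 6 weeks. Errfi1 rose by 1.53 ± 0.34 in mesangial cells (edgeR, adjusted p = 0.0152) and Cebpd by 2.61 ± 0.58 in CNT (adjusted p = 0.0372). The median DN difference over the pairs of this list was 0.22 on the log2 scale at 6 weeks and 0.33 at 12 weeks, beside a median near 0.00 over all genes, against -0.18 and -0.15 for the other receptors and enzymes and 0.01 and 0.06 for the thyroid-hormone-responsive genes. The glucocorticoid list was not shifted for DN alone, as its median was -0.36 for 12 against 6 weeks and 0.18 for female against male. Between the sexes 10 were higher and 2 lower in females of 253 pairs (4.74% against 2.8%), led by Cebpd in Slc7a12-led PT (2.95 ± 0.32, adjusted p = 9.88e-06) and by Pdk4 (2.13 ± 0.24, adjusted p = 1.56e-05) and Mt2 (2.03 ± 0.37, adjusted p = 0.00106) in late PT. Zbtb16 in CNT was lower at 12 than at 6 weeks by 2.20 ± 0.43 (adjusted p = 0.0374), as 1 of 251 pairs called for age (0.398% against 0.0141%). Of 99 pairs of 8 thyroid-hormone-responsive genes, 1 was higher and 1 lower in DN at 12 weeks (2.02% against 0.473%), both of them Ucp2 (2.04 ± 0.28 in early PT, adjusted p = 0.00474, and -1.26 ± 0.29 in mesangial cells, adjusted p = 0.0209). Between the sexes 4 of 101 were higher and 3 lower in females (6.93% against 2.8%), among them Slc16a10 (0.83 ± 0.15, edgeR adjusted p = 0.001) and Me1 (-0.86 ± 0.13, adjusted p = 0.000292) in late PT. Dio1, which converts thyroid hormone to its active form, was higher in late PT of females by 2.81 ± 0.53 (edgeR, adjusted p = 0.00128), at 60.9 ± 15.1 CPM in control females, 18.1 ± 10.6 in DN females, 1.85 ± 1.01 in control males and 4.97 ± 3.62 in DN males (n = 4 each).

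The genes whose class means ran most like those of each member were found over the 17 classes, by Pearson's r of log2(mean CPM + 1) among 12807 genes, as a description over points that share libraries. For Prlr these were Ugt3a1 (0.97), Ddc (0.951) and Acot4 (0.942), for Ghr Lypla1 (0.945), Coasy (0.939) and C8g (0.933), and for Cish Elf3 (0.934), Elovl7 (0.926) and Tmem30b (0.915). Nr3c1 ran most like Sash1 (0.897), Acd (0.893) and Pdgfb (0.891), Esr1 like Map3k7cl (0.851), Itga7 (0.826) and Rdh5 (0.803), and Thrb like Plekhg3 (0.851), Zswim7 (0.844) and Usp2 (0.835). Socs2 had no close match, with Fam107a at 0.698, Sulf2 at 0.612 and C130050O18Rik at 0.594.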

How the data were processed

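Raw UMI counts per gene and barcode were deposited by the authors, who ran Cell Ranger 3.0.2 against mm10 on 10x 3′ libraries, 1 for each mouse. No other value of theirs was used. Barcodes with 200 to 7000 genes and at most 50% mitochondrial UMIs were kept (94436 of 116439), clustered into 45 Leiden clusters after batch alignment of 30 principal components from 2000 variable genes, and named from fixed marker lists. A cluster needed at least 3 markers, each in 10% of its cells and over 2-fold above other cells, thresholds that were set after the clusters were seen. Cells with markers of a second class were removed as doublets (7532, 7.98%; 1 further marker and 1 called gene of a list are not reported here), as were 688 non-tubular cells with over 20% mitochondrial UMIs. The members, the listed genes, genes of the Y chromosome, some of the X, and mitochondrial and ribosomal genes were left out of the variable genes. The classes were still made from the same cells, so levels between classes are descriptions with no test. No doublet caller based on simulated pairs was run.

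UMIs were summed per library and class with at least 10 cells. Each class was fitted once over all genes with edgeR (quasi-likelihood, TMM, filterByExpr with its minimum count of 10), with terms for age and for sex and genotype within age, a barcode-set term for the sexes, and 8 group means for the sex difference of the DN effect. P-values were adjusted by Benjamini-Hochberg over all genes of the class at a threshold of 0.05. The script was tested on simulated data. The members and gene lists were chosen with earlier results of these data known. Values in every library are given for each member in its highest class and wherever it was called, and from each list up to 3 called pairs of lowest adjusted p per comparison. Alternatives were DESeq2, RLE factors, no count filter, sums of 30 cells, no doublet removal, leaving out each library, the larger barcode set, the barcode-set term and a replicate block. Same-numbered DN and control libraries of 1 sex and age deviated together, with correlations over 0.1 in every class but mitotic cells. The labels name no shared litter or day, so the block stayed an alternative, and the choice to give its values beside the results was made after its calls were seen. The within-sex and within-genotype effects, also with the block, were added after the data were seen. Sequences came from RefSeq tables of GRCm38.p6 and gene positions from GENCODE on GRCm38. The study tested single cells, whereas here the mouse was the replicate. P-values measure the spread between mice, and UMI counts limit the precision of low genes.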

Additional observations from a re-analysis of the deposited data

Results flagged for a closer look

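The effect of DN on Prlr differed between the sexes by a test of the difference itself in 3 classes. The log2 difference, females minus males, was -5.95 in late PT, -3.77 in Slc7a12-led PT and -3.30 in early PT, as described above. Of 98 groups formed by genotype with sex or with age for 13 member-and-class pairs, 0 held a library that stood apart by Dixon's criterion.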

How the results depend on the processing

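The number of member-and-class pairs called depended on the processing in 5 of the 6 comparisons. The share of all genes called changed as well. For DN in females of late PT it was 0.228%, 0.784% with the barcode-set term and 3% with the replicate block. Shares over all genes under the other alternatives are not given here, so the counts below are not read as results about the members. DN against control at 6 weeks gave 0 calls, and 7 with no filter on low counts, 3 with DESeq2, 2 with the barcode-set term, 2 with the replicate block and 1 in the larger barcode set, with 0 to 1 without 1 library. At 12 weeks the count was 1, and 7 with no filter, 6 with the block, 2 with the barcode-set term and 0 in the larger set, with 0 to 2 without 1 library. For 12 against 6 weeks it was 0, and 4 with no filter and 1 each with the barcode-set term and the block. Between the sexes it was 6, and 10 with no filter and 3 with the block, with 3 to 9 without 1 library, the 3 being without replicate 2 of the control females of 6 weeks. The sex difference of the DN effect gave 3, and 4 with no filter, with the barcode-set term, with the block and with DESeq2, each adding Socs2 in Slc7a12-led PT, and 1 in the larger set, with 1 to 3 without 1 library, the 1 being without that same library. The DN effect at 12 against 6 weeks gave 0 calls under every alternative run. No called value of a member changed sign under any alternative run, while the called values of the other listed genes were not compared across alternatives. With no filter, adjusted p as low as 3.04e-157 arose in these fits, and the cause was not tested. Prlr in late PT kept both calls under all alternatives run, with log2 values of 4.05 to 5.62 between the sexes and -6.00 to -5.89 for the sex difference of the DN effect (3.78 to 5.78 and -6.24 to -5.44 without 1 library). For the sex difference of the DN effect, the spread in the larger set came from males alone. Ghr and Esr1 in late PT also kept theirs. The highest class was the same for 6 of 7 genes under each of 3 alternatives, the exception being Nr3c1, for which arterial EC took the place of mesangial cells. Same-numbered DN and control libraries deviated together with a median r of 0.445 in females and 0.335 in males, and 1 of 34 male values, in mitotic cells, was 0.045. The replicate numbers of the females also separate the barcode sets, which cannot be told apart from a pairing. In the block 3 calls between the sexes were lost, those of Prlr in early PT (2.51, adjusted p = 0.0857), Prlr in Slc7a12-led PT (1.43, adjusted p = 0.311) and Thrb in late PT (0.40, adjusted p = 0.0813; limma). Low depth limits Prlr in control males of Slc7a12-led PT, Esr1 in most classes and all members in immune, mitotic and podocyte sums.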
